A study of Mus musculus with 13 samples.

Results

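Endometrium of 7 ovariectomized C57BL/6 mice that carried a pellet releasing 17-β estradiol was compared with endometrium of 6 ovariectomized mice without a pellet, and the genes whose pellet difference had the same direction on normal chow and on a high-fat diet are described. The comparison used all 13 mice of the series. The pellet mice were the groups E2 (4 mice on chow) and MIX (3 mice on the high-fat diet), and the mice without a pellet were the groups CON (3 mice on chow) and HD (3 mice on the high-fat diet). All females had both ovaries removed at 6 to 8 weeks of age and were then kept on their diet, with or without the subcutaneous pellet, for 12 weeks. The pellet dose, the composition of the diets and whether mice without estradiol carried an empty pellet are not named in the labels. The tissue was scraped from the opened uterus with the back of a scalpel, so it can hold epithelium, stroma, vessels, leukocytes and serosa. Each mouse gave 1 sample, and the labels do not say whether mice shared a litter or cage.

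Estradiol acts in the uterus mainly through estrogen receptor alpha, the product of Esr1, a transcription factor of epithelium and stroma. In ovariectomized rodents a short exposure is known to draw water and leukocytes into the uterus and to drive epithelial division and secretion, while long exposure is known for squamous change of the epithelium. Olfm4, Ltf, Muc1 and the Sprr2 genes are textbook secretory or surface genes of the estrogen-exposed uterine epithelium.

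Values are log2 expression per array feature, and a difference is the pellet mice minus the mice without a pellet with diet as a factor, in log2 units, with its standard error (SE) from limma over all 13 mice. The epithelial genes Epcam (9.96 to 10.90 over all mice), Krt8, Krt18 and Cdh1 were well above the array medians in every mouse, and so were the uterine steroid receptor genes Esr1 (8.19 to 9.62) and Pgr (8.81 to 10.91). The gland factor Foxa2 lay at 5.70 to 6.66 and the stromal gene Hand2 at 6.27 to 7.86, also above the array medians of 4.48 to 4.71. The first principal component (33.4% of the variance) was led by MIX replicate 3 with a score of 102.5 and E2 replicate 1 with 46.99, and the second by MIX replicate 2 (-72.19). These 3 are pellet mice, and values below that moved by over 1.5 times without one of them are given without it. The sample titles hold either a numbered animal code, in 2 mice of CON, 3 of E2 and 2 of HD, or a lettered one, in 1 mouse each of CON, E2 and HD and in the 3 of MIX, and the labels do not give the meaning of these styles. Because all MIX mice are lettered, their pellet difference and the code style cannot be fully told apart on the high-fat diet, and differences fitted with code style as a covariate are given where they end a call.

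One gene passed an adjusted p under 0.05 in limma over 65929 features: Olfm4, which was higher in pellet mice. That is 0.00152% of features called higher and 0% called lower. At an unadjusted p under 0.05, a mark used below only to count and not to call, 2589 features were higher (3.93%) and 4840 lower (7.34%), 7429 in all where 3296 are expected by chance. Among the 30425 genes with 1 symbol the counts were 1855 higher (6.1%) and 1776 lower (5.84%). The direction of these counts depends on scaling: with each array centred on its median, which moves the median difference of all features from -0.03 to 0.03, the counts over all features became 5630 higher and 1857 lower (75.2% higher, against 34.85% on the deposited values). In 227 features all 7 pellet mice lay above all 6 mice without a pellet (0.344%), and in 115 they lay below (0.174%). Among genes with 1 symbol these numbers were 182 (0.598%) and 54 (0.177%).

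Over all genes the direction agreed between the diets somewhat more often than not. Of the 30425 genes with 1 symbol, 17941 (59.0%) had a pellet difference of the same sign on chow and on the high-fat diet, 7265 of them positive and 10676 negative. The 2 diet strata use different mice throughout. Of these 30425 genes, the groups did not overlap on either diet in 360 that were higher and 138 that were lower on both diets. In 37 genes they did not overlap on either diet but with opposite signs. Over all 65929 features these counts were 459, 279 and 74. Large differences were mostly positive: 329 genes differed by at least 1 log2 unit upward and 20 downward. Tested separately, limma called 0 features between pellet and no pellet on chow (0%, 2636 under 0.05 unadjusted) and 12 on the high-fat diet (0.0182%, 8387 under 0.05 unadjusted). The difference of the 2 pellet differences gave 0 calls (0%), with a smallest adjusted p of 0.131 in limma and 3035 features under 0.05 unadjusted.

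**Figure D1:**
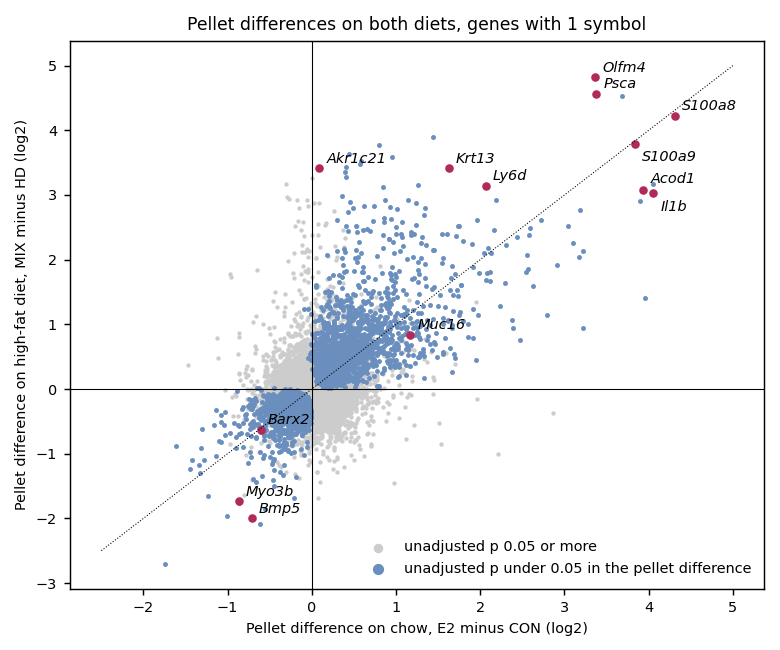
Pellet differences of 30425 genes with 1 symbol, as log2 differences on chow (E2 minus CON, horizontal axis) and on the high-fat diet (MIX minus HD, vertical axis). Blue points had an unadjusted p under 0.05 in the pellet difference with diet as a factor, grey points did not, the dotted line marks equal differences on both diets, and named genes are in red. Most blue points lie to the upper right or lower left of 0. Olfm4, Psca, S100a8, S100a9, Acod1 and Il1b differed by 3 log2 units or more on both diets, while Akr1c21 differed by 3.42 on the high-fat diet and by 0.09 on chow.

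Olfm4 encodes olfactomedin 4, a secreted glycoprotein of epithelial cells. Its log2 values without a pellet were 4.82, 5.20 and 4.79 in CON and 4.83, 4.90 and 5.13 in HD. With a pellet they were 9.04, 9.38, 7.89 and 6.89 in E2 and 9.80, 9.17 and 10.38 in MIX. Every pellet mouse lay above every mouse without one, the nearest being E2 replicate 4 and CON replicate 2, and the mice without a pellet lay close to the array medians. Olfm4 rose by 4.04 (SE 0.41, adjusted p = 0.0216 in limma), which is 16.5-fold, and the exact permutation p over the 700 relabelings of mice within diets was 0.00143, the smallest these can give. Genes that did not pass, such as Fam180a and Gfap, also had this permutation p, which is not adjusted for the number of features. The Olfm4 difference was 3.36 (SE 0.50) on chow and 4.83 (SE 0.53) on the high-fat diet, and the change between them, 1.46 (SE 0.73), did not pass (adjusted p = 0.929 in limma). With code style as a covariate the difference was 4.10 and the adjusted p in limma 0.0848. Among lettered mice alone, which hold 1 mouse each of CON, E2 and HD, the difference was 3.63. Among numbered mice alone it was 3.76. Numbered mice include none of MIX, so this last value is E2 minus CON on chow. Leaving out each mouse in turn gave an Olfm4 difference of 3.84 to 4.33, and the adjusted p in limma stayed under 0.05 without E2 replicate 2, 3 or 4 and was 0.0527 to 0.124 without each of the other mice, MIX replicate 3 and HD replicate 3 giving those bounds.

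The promoter windows of Olfm4 and Krt13, the pair of genes of the higher group that was also called on the high-fat diet alone and that has the largest differences there, and of Acod1, an inflammatory gene described below, are shown because all 3 had every pellet mouse above every other mouse. Sequences are from RefSeq, build GRCm38.p6, read 5′ to 3′ on the gene's strand, from 250 bases before to 50 bases after the annotated start.
Olfm4, chr14:80000052-80000351, plus strand: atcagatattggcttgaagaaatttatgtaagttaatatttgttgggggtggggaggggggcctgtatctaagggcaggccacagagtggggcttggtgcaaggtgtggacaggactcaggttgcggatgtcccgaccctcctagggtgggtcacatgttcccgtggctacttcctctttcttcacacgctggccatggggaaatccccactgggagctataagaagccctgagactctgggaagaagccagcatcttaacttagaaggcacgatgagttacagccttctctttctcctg
Krt13, chr11:100121517-100121816, minus strand: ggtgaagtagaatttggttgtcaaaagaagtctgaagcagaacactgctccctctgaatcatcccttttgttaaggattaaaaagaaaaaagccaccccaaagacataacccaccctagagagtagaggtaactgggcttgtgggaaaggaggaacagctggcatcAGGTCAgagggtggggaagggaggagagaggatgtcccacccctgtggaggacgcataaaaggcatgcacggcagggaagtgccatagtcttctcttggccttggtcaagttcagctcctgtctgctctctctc
Acod1, chr14:103046762-103047061, plus strand: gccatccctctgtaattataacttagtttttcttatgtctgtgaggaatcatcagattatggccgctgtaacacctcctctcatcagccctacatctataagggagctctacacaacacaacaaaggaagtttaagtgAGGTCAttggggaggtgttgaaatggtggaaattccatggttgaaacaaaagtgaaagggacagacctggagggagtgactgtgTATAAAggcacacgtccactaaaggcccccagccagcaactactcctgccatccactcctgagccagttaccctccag
Capitals mark the hexamer AGGTCA of estrogen response elements, searched on both strands, and the TATA box TATAAA. In the windows shown the hexamer begins at position -84 from the start of Krt13 and at -112 from that of Acod1. The window of Olfm4 holds neither motif. Krt13 has 2 windows, which were ranked by their number of hexamers before 1 was chosen to be shown. The hexamer lies in 5340 of 32851 RefSeq mouse promoter windows of this length (16.3%), and TATAAA in 2733 (8.32%). The full palindrome, GGTCA and TGACC with any 3 bases between them, lies in 23 windows and overlaps the hexamer search where an A precedes it. It was in none of the 89 windows of the 76 genes that have one among the 104 genes searched. Genes named after their values were seen and some others in the text were not searched. Of the 12 higher genes described next 9 had a window (12 windows in all), and 1 of these genes held the hexamer (Krt13). Of the 12 lower genes 10 had a window (11 in all), and 3 held it (Fam124b, Gfap and Ubash3b). These counts are per gene, while the shares above are per window. These are letters in a window and say nothing of binding.

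The 11 genes of smallest p after Olfm4 with higher values on both diets did not pass, with adjusted p of 0.068 to 0.091 in limma. Several are epithelial surface or keratin genes. Psca, which encodes a GPI-anchored surface protein, lay at 4.56 to 7.53 (median 5.20) without a pellet and at 7.67 to 11.70 (median 9.17) with one. All 7 pellet mice were above the others, HD replicate 3 being the nearest below, and the difference was 3.93 (SE 0.59; 3.38 on chow and 4.56 on the high-fat diet). Ly6d, a related surface protein gene of squamous and lymphoid cells, lay at 6.25 to 7.70 (median 6.84) and 8.16 to 11.18 (median 9.07), a difference of 2.57 (SE 0.40) with no overlap. Muc16, the gene of the large membrane mucin known as CA125, lay at 4.82 to 5.50 (median 5.29) and 5.78 to 6.68 (median 6.26), a difference of 1.01 (SE 0.16), 1.17 on chow and 0.84 on the high-fat diet.

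Krt13, a keratin of non-cornified squamous epithelium, lay at 6.53 to 7.31 (median 6.76) without a pellet and at 7.92 to 10.51 (median 9.30) with one. The groups did not overlap, and MIX replicates 1 (10.51) and 3 (10.49) lay above all E2 mice (9.30 at most). The difference was 2.46 (SE 0.35, adjusted p = 0.0753 in limma), 1.63 on chow and 3.42 on the high-fat diet, where it passed (adjusted p = 0.0160 in limma; 0.0928 with code style as a covariate). Ano1, which encodes a calcium-activated chloride channel, differed by 1.18 (SE 0.17), and its lowest pellet mouse (E2 replicate 3, 7.84) lay just above its highest mouse without a pellet (7.72).

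The other 6 genes have roles in cells of several kinds. C4b, the gene of complement component 4, lay at 7.55 to 8.68 (median 8.21) without a pellet and at 8.60 to 10.09 (median 9.42) with one, a difference of 1.21 (SE 0.19) that was nearly equal on both diets (1.20 and 1.22). Lipa, which encodes lysosomal acid lipase, lay at 7.35 to 8.17 (median 7.78) and 8.34 to 9.44 (median 8.59), a difference of 1.02 (SE 0.15; 0.99 and 1.06). The interferon-induced exonuclease gene Isg20 differed by 0.71 (SE 0.10), Fam180a by 0.98 (SE 0.13) and Tmem140 by 0.86 (SE 0.12). Tanc2, a scaffold protein gene, had a small difference with little spread: 5.49 to 5.68 (median 5.66) without a pellet, 5.86 to 6.35 (median 6.08) with one, a difference of 0.52 (SE 0.06, limma adjusted p = 0.0676). C4b and Tmem140 overlapped between the groups, at 8.60 in E2 replicate 2 against 8.68 in HD replicate 2 and at 5.82 in E2 replicate 3 against 6.31 in HD replicate 3, and the other 4 did not.

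**Figure D2:**
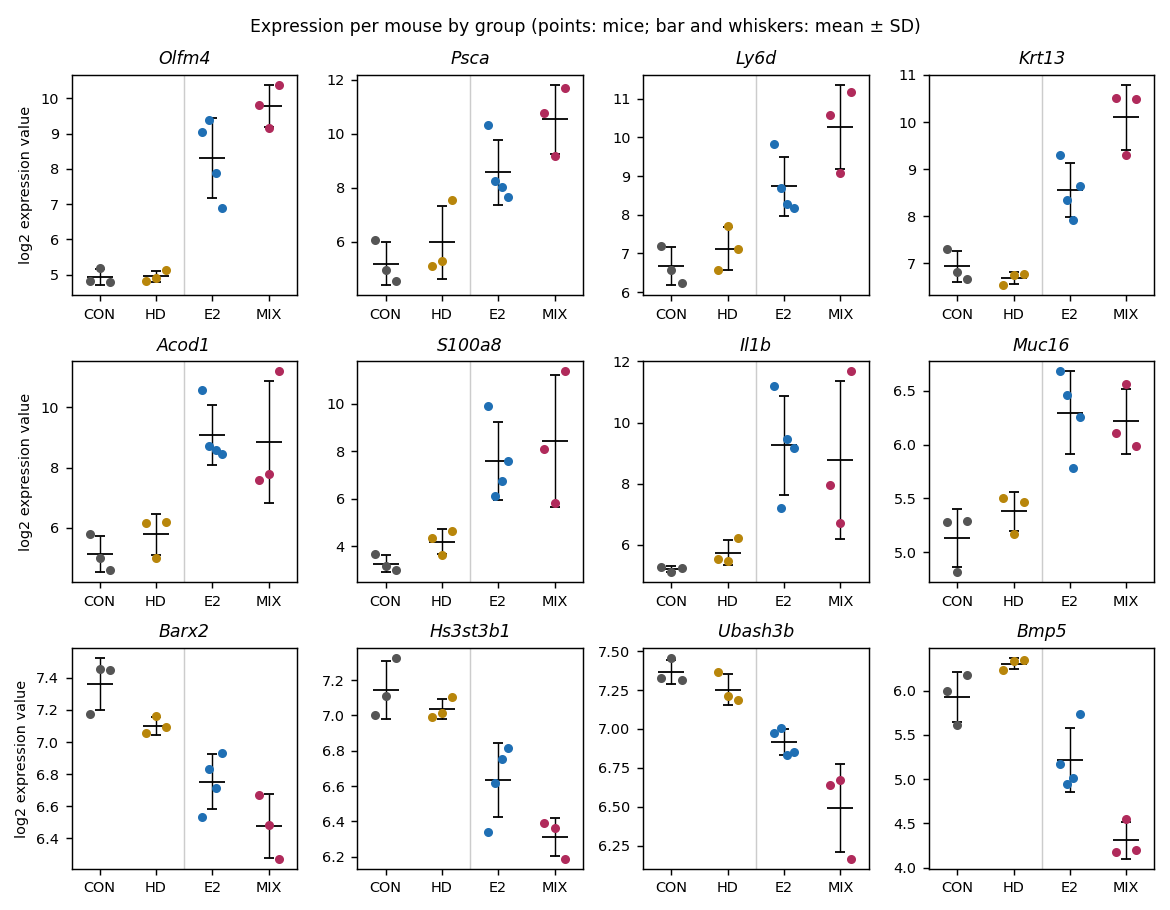
Log2 expression value per mouse (points) in CON and HD (without a pellet, left of the grey line) and E2 and MIX (with a pellet, right of it), with the mean and SD of each group, for 12 genes. Each panel has its own vertical axis, which does not start at 0. Olfm4, Psca, Ly6d, Krt13, Acod1, S100a8, Il1b and Muc16 were higher in all 7 pellet mice than in all 6 others, and Barx2, Hs3st3b1 and Ubash3b lower. In Bmp5 E2 replicate 4 (5.74) lay above CON replicate 2 (5.62).

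No gene was called lower with diet as a factor. The 12 genes of smallest p with lower values on both diets had adjusted p of 0.070 to 0.116 in limma, and their differences ran from -0.31 to -1.31, against 0.52 to 4.04 for the 12 higher genes. Of these lower genes 3 were called under other settings of limma: Bmp5 with 4 group means (adjusted p = 0.0125) and with these and code style (0.00727), Hs3st3b1 with the latter (0.0296) and with dim features left out (0.0479), and Barx2 with dim features left out (0.0444). Barx2, a homeobox transcription factor gene, lay at 7.05 to 7.46 (median 7.17) without a pellet and at 6.27 to 6.93 (median 6.67) with one, a difference of -0.62 (SE 0.08) that was alike on chow (-0.61) and the high-fat diet (-0.63). Hs3st3b1, which encodes an enzyme that adds sulfate to heparan sulfate chains, lay at 6.99 to 7.32 (median 7.06) and 6.19 to 6.81 (median 6.39), a difference of -0.61 (SE 0.09). Ubash3b, a phosphatase gene, lay at 7.19 to 7.45 (median 7.32) and 6.17 to 7.01 (median 6.83), a difference of -0.59 (SE 0.09). In these 3 genes every pellet mouse was below every mouse without one.

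Bmp5, a ligand of the bone morphogenetic protein family, lay at 5.62 to 6.35 (median 6.20) without a pellet and at 4.18 to 5.74 (median 4.94) with one, a difference of -1.31 (SE 0.23). It was -0.71 on chow and -1.99 on the high-fat diet, where it passed (adjusted p = 0.0159 in limma; 0.0095 with code style as a covariate), and the change between the diets, -1.28 (SE 0.28), had an adjusted p of 0.929 in limma. Pdgfc, a platelet-derived growth factor gene, differed by -0.68 (SE 0.12; -0.73 and -0.62). Hmga2, a chromatin architecture gene of growing tissue, differed by -0.76 (SE 0.13), with 7.54 to 8.06 (median 7.86) without a pellet and 6.35 to 7.61 (median 7.19) with one. Myo3b, a myosin with a kinase domain, lay at 8.11 to 8.69 (median 8.37) and 6.43 to 7.89 (median 7.09), a difference of -1.27 (SE 0.22) with no overlap.

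Arhgef19 differed by -0.49 (SE 0.08), and Fam124b by -0.91 (SE 0.16), both with no overlap between the groups. Zswim5 (-0.48, SE 0.09), Dbndd2 (-0.35, SE 0.06) and Gfap (-0.31, SE 0.06), the intermediate filament gene of glia, overlapped. For Gfap the medians were 5.30 without and 5.03 with a pellet, near the array medians.

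The estradiol receptor and classical response genes, taken as a check of the labels, did not pass. Ltf, which encodes lactoferrin, lay at 12.02 to 13.09 (median 12.36) without a pellet and at 12.36 to 13.26 (median 12.69) with one, a difference of 0.39 (SE 0.16, limma adjusted p = 0.403). Lcn2, the gene of lipocalin 2, differed by 0.11 (SE 0.15) and Greb1, a cofactor gene of the estrogen receptor, by -0.20 (SE 0.15). Esr1 lay at 9.14 to 9.62 (median 9.25) and 8.19 to 9.34 (median 9.13), a difference of -0.40 (SE 0.17, limma adjusted p = 0.422). Pgr, the progesterone receptor gene and a target of estradiol in this tissue, differed by -0.51 (SE 0.27, adjusted p = 0.49 in limma). Among the lettered mice, which hold 1 each of CON, E2 and HD, it differed by 0.06. All 5 overlapped between the groups, so this check does not settle the labels. At an unadjusted p under 0.05 in limma Ltf was higher and Esr1 lower. Ltf and Lcn2 (11.21 to 12.16) were already high without a pellet, where the highest value on any array was 13.83. Esr1 was at -0.26 without MIX replicate 3, Greb1 at -0.08 without CON replicate 3 and Lcn2 at 0.01 without CON replicate 3, and Lcn2 was at 0.04 to 0.18 without other single mice.

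The 36 gene lists below are described by counts of members at an unadjusted p under 0.05, to be read beside 6.1% higher and 5.84% lower among all genes with 1 symbol and a median difference of -0.02. The lists and their members were chosen with earlier results of these data known, which can raise their counts above these shares. With each array centred on its median these shares were 10.95% higher and 1.89% lower, so the direction of small shifts depends on scaling. Centring gave 11 higher members in place of 6 in the unfolded protein response list, 3 in place of 1 in the receptivity list, 2 in place of 1 in the gland, endothelium and receptor lists and 2 in place of 0 among epithelium markers, and left 1 lower member in the receptor, receptivity and Wnt lists and 0 in the granulocyte, adipocyte and prostaglandin lists. It turned the medians of the growth target (0.03), epithelium (0.05) and smooth muscle (0.04) lists from just below to just above 0. The same held for the Wnt (0.004), FGF and EGF (0.02), lipogenesis (0.03) and fatty acid oxidation (0.03) lists. Lower counts of 0 to 2 moved by at most 2 when single mice were left out, other than in the Wnt list. Apart from Olfm4 no member passed over all features. In scraped tissue a higher value of a gene can come from more cells of a type or from more RNA per cell, and these cannot be told apart. The secretory estradiol targets of epithelium had 9 of 21 measured members higher and 1 lower, with a median of 0.55 (0.78 on chow and 0.35 on the high-fat diet). Besides Olfm4 and Muc16 these were the chloride channel regulator Clca3a1 (1.73), Sprr2d (2.67) and Sprr2b (1.90), genes of small proline-rich surface proteins, the mucin-folding enzyme Agr2 (1.91), Pigr (0.86), Ltf (0.39) and the endocytic receptor Lrp2 (1.36). Apart from Ltf these last genes were picked for naming after their values were seen. Wfdc2 was the lower one (-0.37). The Sprr2 genes are near-identical copies, so their features can share signal.

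In the growth and transcription targets of estradiol counts were low. Of 27 measured members 1 was higher, the gap junction gene Gja1 (0.25, SE 0.09), and 1 lower, the transcription factor Klf4 (-0.73, SE 0.27), and the median was -0.04. Without CON replicate 1, CON replicate 2 or MIX replicate 2 the number higher was 2, and without MIX replicate 1 it was 4. The channel list had 10 of 22 members higher and 1 lower, with a median of 0.43, among them Ano1 and the water channel gene Aqp4, which lay at 5.16 to 5.35 (median 5.31) without a pellet and 5.30 to 6.16 (median 5.66) with one (0.46, SE 0.11). The lower member was the chloride channel gene Cftr (-0.74).

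Basal and squamous epithelium genes had 14 of 28 members higher and 0 lower, with a median of 0.09 on chow and 0.83 on the high-fat diet. The mean level of the list lay at 5.61 to 5.90 in mice without a pellet and at 5.98 to 7.38 in pellet mice, with no overlap. Krt15, a keratin of basal epithelial cells, was at 6.36 to 6.68 (median 6.60) without a pellet and at 7.12 to 9.68 (median 7.63) with one, a difference of 1.56 (SE 0.28; 0.85 on chow and 2.38 on the high-fat diet). Krt5 (2.59), Krt14 (1.73) and the transglutaminase Tgm1 (0.88), named after their values were seen, were also separated in all mice. Within E2 the level of this list was 6.63 in replicate 1 and 5.98 to 6.09 in the other 3 mice.

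Epithelium markers in general had 0 of 15 members higher and 1 lower, the splicing regulator Esrp1 (-0.36, SE 0.12), with a median of -0.02. The list level was 9.77 to 10.42 with a pellet and 9.93 to 10.24 without, and 1 or 2 members were higher without CON replicate 1, CON replicate 3, E2 replicate 4, HD replicate 3 or MIX replicate 2. Uterine gland genes had 1 of 13 members higher, the antioxidant enzyme Gpx3, at 7.48 to 7.95 (median 7.80) without a pellet and 8.27 to 10.14 (median 8.66) with one (1.08, SE 0.28, no overlap). Their median of 0.54 was 0.30 without MIX replicate 2, the mouse with the highest gland list level (7.57), and 2 members were higher without E2 replicate 3 or MIX replicate 3. Cited4, a coactivator gene, differed by 0.54 (SE 0.29; 0.33 without MIX replicate 2).

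Cytokine and chemokine genes had 20 of 36 members higher and 0 lower, with a median of 0.72 (0.75 on chow and 0.58 on the high-fat diet). The mean level was 5.47 to 6.02 without a pellet and 6.29 to 7.64 with one, with no overlap. Il33, an alarmin gene of epithelium and stroma, lay at 6.25 to 6.90 (median 6.58) without a pellet and at 7.24 to 9.93 (median 8.20) with one, a difference of 1.76 (SE 0.32; 1.18 and 2.43). Il1b, the gene of the inflammatory cytokine interleukin 1 beta, lay at 5.11 to 6.22 (median 5.37) and 6.70 to 11.67 (median 9.18), a difference of 3.58 (SE 0.76). Both were separated in all mice, and the values of Il1b spread widely within the pellet mice, highest in MIX replicate 3 and E2 replicate 1.

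Granulocyte markers had 7 of 18 members higher and 1 lower, with a median of 0.84 that was 0.42 without MIX replicate 3. S100a8, which with S100a9 forms the neutrophil protein calprotectin, lay at 3.00 to 4.64 (median 3.65) without a pellet, at or under the array medians, and at 5.82 to 11.37 (median 7.59) with one, a difference of 4.27 (SE 0.79, limma adjusted p = 0.12). The difference was 4.31 on chow and 4.22 on the high-fat diet. S100a9 lay at 4.79 to 6.22 (median 5.38) and 7.24 to 12.41 (median 8.89), a difference of 3.81 (SE 0.74). The chemokine receptor Cxcr2 (1.11), the growth factor receptor Csf3r (1.73) and Il1r2 (2.03), named after their values were seen, also had every pellet mouse above every other mouse. Other defining genes of granulocytes did not share this: Ly6g differed by -0.00, Mpo by -0.04, the eosinophil gene Epx by -0.05 and Elane by -0.14. The list level was 4.47 to 5.02 without a pellet and 5.14 to 7.61 with one.

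Macrophage markers had 21 of 26 members higher and 0 lower, with a median of 0.79 (0.97 on chow and 0.61 on the high-fat diet). C1qb, a chain of the first complement component that macrophages make, lay at 7.04 to 8.55 (median 8.01) without a pellet and 8.41 to 10.05 (median 9.38) with one (1.30, SE 0.29). Clec7a, the gene of the beta-glucan receptor dectin 1, lay at 4.24 to 6.39 (median 5.16) and 6.47 to 9.54 (median 7.45), a difference of 2.45 (SE 0.58) with no overlap. The list level was 5.95 to 6.87 without a pellet and 6.79 to 8.07 with one, so MIX replicate 1 (6.79) lay below HD replicate 1 (6.87). The macrophage and granulocyte list levels were therefore higher together with the cytokine genes, and their part in the cytokine values was not tested.

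Acod1 encodes the enzyme that makes itaconate and is known both from activated macrophages and from the receptive uterine epithelium. It lay at 4.62 to 6.21 (median 5.41) without a pellet and at 7.60 to 11.20 (median 8.57) with one, a difference of 3.54 (SE 0.59, limma adjusted p = 0.107), 3.94 on chow and 3.08 on the high-fat diet. All 7 pellet mice were above the others, E2 replicate 1 (10.57) and MIX replicate 3 (11.20) being highest. It was the 1 member higher among 22 progesterone-response and receptivity genes, of which 3 were lower: the homeobox gene Msx2 (-0.74, SE 0.21), Gata2 (-0.34) and Sox17 (-0.64), the last 2 named after their values were seen. Without E2 replicate 1 or MIX replicate 1 the number higher was 3, and without HD replicate 1 or 2 it was 2. The number lower was 1 without HD replicate 1, CON replicate 3 or MIX replicate 3.

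Genes of antigen presentation and complement, many of them also expressed by macrophages, were likewise on the higher side. MHC class II presentation genes had 9 of 13 members higher, 13 of 13 positive on both diets and a median of 0.61. H2-Ab1, a chain of a class II molecule, lay at 8.13 to 9.19 (median 8.34) without a pellet and 8.87 to 10.52 (median 9.64) with one (1.16, SE 0.24), and H2-Eb1 differed by 1.10 (SE 0.24). Complement genes had 9 of 17 members higher and a median of 0.52, among them C4b and Serping1, the inhibitor of the first component (0.80, SE 0.17, no overlap). T, NK and B cell markers had 7 of 17 members higher and a median of 0.38, with the T cell receptor genes Cd3g (0.65, SE 0.19) and Cd3e (0.68, SE 0.25). That count was 2 without HD replicate 1.

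Interferon-stimulated genes had 13 of 30 members higher, with a median of 0.66. Gbp2, a GTPase gene induced by interferon gamma, lay at 7.47 to 8.93 (median 8.09) without a pellet and 8.89 to 10.79 (median 9.93) with one, a difference of 1.69 (SE 0.34), and Gbp7 differed by 0.79 (SE 0.23). The count was 5 without CON replicate 3, 7 without HD replicate 1, 8 without CON replicate 2 or MIX replicate 3, and 6 with code style as a covariate. The list level was highest in E2 replicate 4 (9.53), without which the median was 0.40, and it was 6.93 to 8.08 without a pellet.

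**Figure D3:**
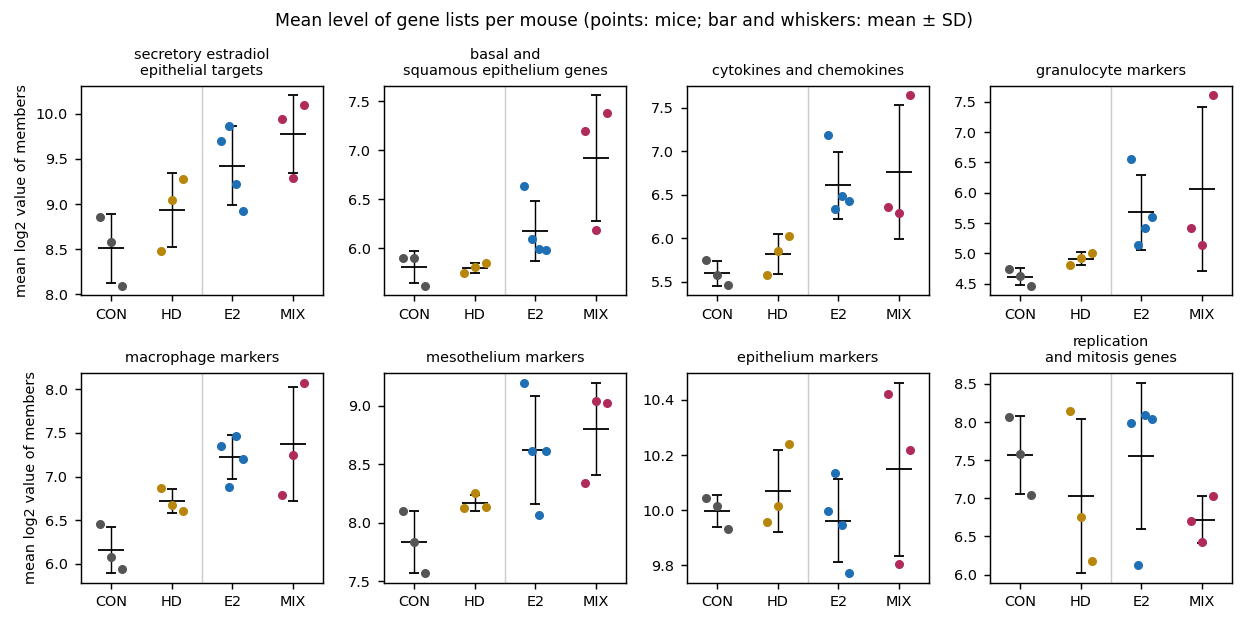
Mean log2 value of the members of 8 gene lists per mouse (points), with the mean and SD of each group; each panel has its own vertical axis, which does not start at 0. Cytokine, granulocyte and squamous lists lay higher in every pellet mouse than in every other mouse, the macrophage list nearly so, while epithelium markers and replication genes overlapped throughout.

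Mesothelium markers, which belong to the serosal covering of the uterus, had 8 of 12 members higher and 12 of 12 positive on both diets, with a median of 0.81 (0.85 and 0.67). Bnc1, a transcription factor gene of mesothelium and basal epithelium, lay at 6.84 to 7.80 (median 7.53) without a pellet and at 7.80 to 8.76 (median 8.15) with one (0.87, SE 0.17). Muc16 is also on this list, and the list level differed with it: it was 7.57 to 8.25 without a pellet and 8.07 to 9.19 with one. E2 replicate 3 (8.07) was the 1 pellet mouse within the range of the others, and it also had the lowest Muc16 of the pellet mice. The part of mesothelium in the Muc16 difference was not tested.

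Stroma markers had 5 of 14 members higher and a median of 0.40, 0.24 without MIX replicate 2. Gpc3, a cell surface proteoglycan gene, differed by 1.07 (SE 0.22, no overlap) and Vim, the gene of vimentin, by 0.75 (SE 0.24). Endothelium markers had 1 of 14 higher, the junction gene Esam (0.48, SE 0.19; 0.29 without MIX replicate 2), and their median of 0.27 was -0.05 without MIX replicate 2, whose list level of 7.48 stood far above the next pellet mouse (6.25). Without HD replicate 1 the number higher was 0, and without E2 replicate 3 or MIX replicate 1 it was 2. Flt1, a receptor of vascular endothelial growth factor, differed by 0.33 (SE 0.17). Smooth muscle markers had 0 of 14 members at an unadjusted p under 0.05, with a median of -0.03. It was 1 higher without CON replicate 2, E2 replicate 3 or MIX replicate 1, and Lmod1 and Myocd differed by -0.15 (SE 0.07) and -0.10 (SE 0.05).

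Matrix and collagen genes had 10 of 26 members higher and a median of 0.38. The count was 6 without HD replicate 2, HD replicate 3, E2 replicate 4 or MIX replicate 3, and the median 0.21 without MIX replicate 3. Thbs1, the gene of thrombospondin 1, lay at 7.97 to 8.62 (median 8.16) without a pellet and 8.87 to 10.70 (median 9.49) with one (1.30, SE 0.27, no overlap), and the proteoglycan Bgn differed by 0.78 (SE 0.17). Matrix metalloproteinases and TIMPs had 7 of 18 members higher and a median of 0.53, with the gelatinase Mmp2 at 1.10 (SE 0.30) and its inhibitor Timp2 at 0.57 (SE 0.16).

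Among metabolic lists the lysosomal and glycolytic ones were on the higher side. Cholesterol efflux and lysosomal lipid genes had 9 of 18 members higher, 18 of 18 with a positive difference and a median of 0.31, the same on both diets (0.30). Lipa had the smallest p in limma of this list, whose largest difference was 1.08, and the cholesterol exporter Abcg1 differed by 0.52 (SE 0.11). Hypoxia and glycolysis genes had 8 of 23 members higher, 23 of 23 positive and a median of 0.48, and 15 members were higher without MIX replicate 2, while the median was 0.30 without MIX replicate 3. The collagen-modifying enzyme P4ha1 differed by 0.73 (SE 0.16) and Ndrg1 by 0.90 (SE 0.21).

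Unfolded protein response genes had 6 of 22 members higher and a median of 0.20, with the chaperone genes Creld2 (0.23, SE 0.06) and Sdf2l1 (0.32, SE 0.09). Cholesterol synthesis genes had 0 of 17 members at an unadjusted p under 0.05 (median 0.01), and 2 higher without MIX replicate 2. Sc5d was at 0.28, and at 0.17 without MIX replicate 3. Cyp51 was at 0.35, at 0.22 without MIX replicate 3 or E2 replicate 1 and at 0.54 without MIX replicate 2. Lipogenesis genes had 3 higher and 3 lower of 18, the desaturase Fads2 at 0.87 (SE 0.24) and the elongase Elovl6 at -0.67 (SE 0.21), and 5 higher and 5 lower without E2 replicate 3. Fatty acid oxidation genes had 3 higher and 1 lower of 18, with Acadl at 0.24 (SE 0.08) and Ehhadh at 0.45 (SE 0.15).

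Signalling lists held members in both directions. FGF and EGF signalling genes had 6 of 28 members lower and 1 higher. Spry1, a feedback inhibitor of growth factor signalling, lay at 6.91 to 7.45 (median 7.10) without a pellet and 6.61 to 6.96 (median 6.71) with one (-0.38, SE 0.09; -0.53 and -0.20), and the related inhibitor Spred2 differed by -0.47 (SE 0.14). The receptor genes Erbb2 (-0.54) and Erbb4 (-0.81), named after their values were seen, were among the lower members. The count of lower members ran from 4 to 7 when single mice were left out, and that of higher members was 0 without HD replicate 1, HD replicate 3, CON replicate 3 or MIX replicate 3 and 2 without E2 replicate 3 or MIX replicate 1. Steroid and retinoid receptors had 4 of 18 lower (Rara -0.30, Esr2 -0.17, Rarg -0.24 and Esr1) and 1 higher, the vitamin D receptor gene Vdr (0.52, SE 0.12; 0.20 on chow and 0.90 on the high-fat diet, where it passed with an adjusted p of 0.0264 in limma that was 0.102 with code style as a covariate). When single mice were left out 3 to 6 members were lower, and 2 were higher without MIX replicate 2, E2 replicate 2 or E2 replicate 3.

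BMP and TGF-beta family genes had 7 of 29 members higher and 3 lower. The lower ones were Bmp5 and the inhibitory Smad genes Smad6 (-0.22) and Smad7 (-0.23), and the higher ones included Tgfb1 (0.64, SE 0.16), Tgfb2 (1.43) and Tgfb3 (0.63). Without CON replicate 2 the number lower was 5. Wnt ligands and inhibitors had 3 of 28 higher and 2 lower, with the secreted inhibitors Frzb (0.86, SE 0.22) and Sfrp2 (0.64, SE 0.18) higher and the epithelial ligand Wnt7a (-0.85) lower. Without MIX replicate 1 6 members were higher, and without E2 replicate 3 6 were lower. Prostaglandin genes had 6 of 18 higher and 1 lower, with a median of 0.12 and differences of -0.53 to 2.16. In 7 of the 18 the sign differed between the diets. The degrading enzyme Hpgd was at 0.81 (SE 0.21) and the synthase Ptges at 0.46 (SE 0.14).

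Steroid-converting enzymes had 4 of 18 members higher and 0 lower. Star, which carries cholesterol into mitochondria, lay at 5.88 to 6.19 (median 5.97) without a pellet and 6.21 to 7.24 (median 6.44) with one (0.50, SE 0.15). Akr1c21, a hydroxysteroid dehydrogenase gene, was at 3.02 to 3.25 in all mice without a pellet and 3.00 to 3.36 in E2, under the array medians, and at 7.14, 4.87 and 7.66 in MIX. Its difference of 1.64 (SE 0.58) was 3.42 on the high-fat diet and 0.09 on chow, and the change between the diets, 3.33 (SE 0.71), had an adjusted p of 0.929 in limma.

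Replication and mitosis genes had 0 of 34 members at an unadjusted p under 0.05 in either direction. Their differences were negative in 31 of 34, with a median of -0.13 that ran from -0.28 to 0.09 when single mice were left out. Mcm2 (-0.34, SE 0.30) and Mcm6 (-0.38, SE 0.36), helicase subunits of replication, had differences near 0 on chow (0.02 and 0.03) and of -0.74 and -0.84 on the high-fat diet. They were at -0.15 and -0.14 without HD replicate 1 and at -0.20 each without E2 replicate 2, and Mcm2 was at -0.21 without MIX replicate 2. The list level varied as widely without a pellet (6.18 to 8.15) as with one (6.13 to 8.09). Among G1 regulators 2 of 13 were higher, the inhibitors Cdkn1c (0.22, SE 0.08) and Cdkn2d (0.22, SE 0.10). That count was 0 without CON replicate 3 and 1 without E2 replicate 1, E2 replicate 4, HD replicate 2, HD replicate 3, MIX replicate 2 or MIX replicate 3.

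Adipocyte markers had 1 of 12 members higher, Pparg (0.54, SE 0.19), and 2 lower, among them Plin1 (-0.18, SE 0.06), and the list level was 5.33 to 5.64 with and 5.36 to 5.90 without a pellet. Without CON replicate 3 the number higher was 2. Of 3 measured red cell markers, Alas2 differed by 0.85 (SE 0.31) and Slc4a1 by 0.05 (SE 0.09; 0.02 to 0.11 when single mice were left out).

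**Figure D4:**
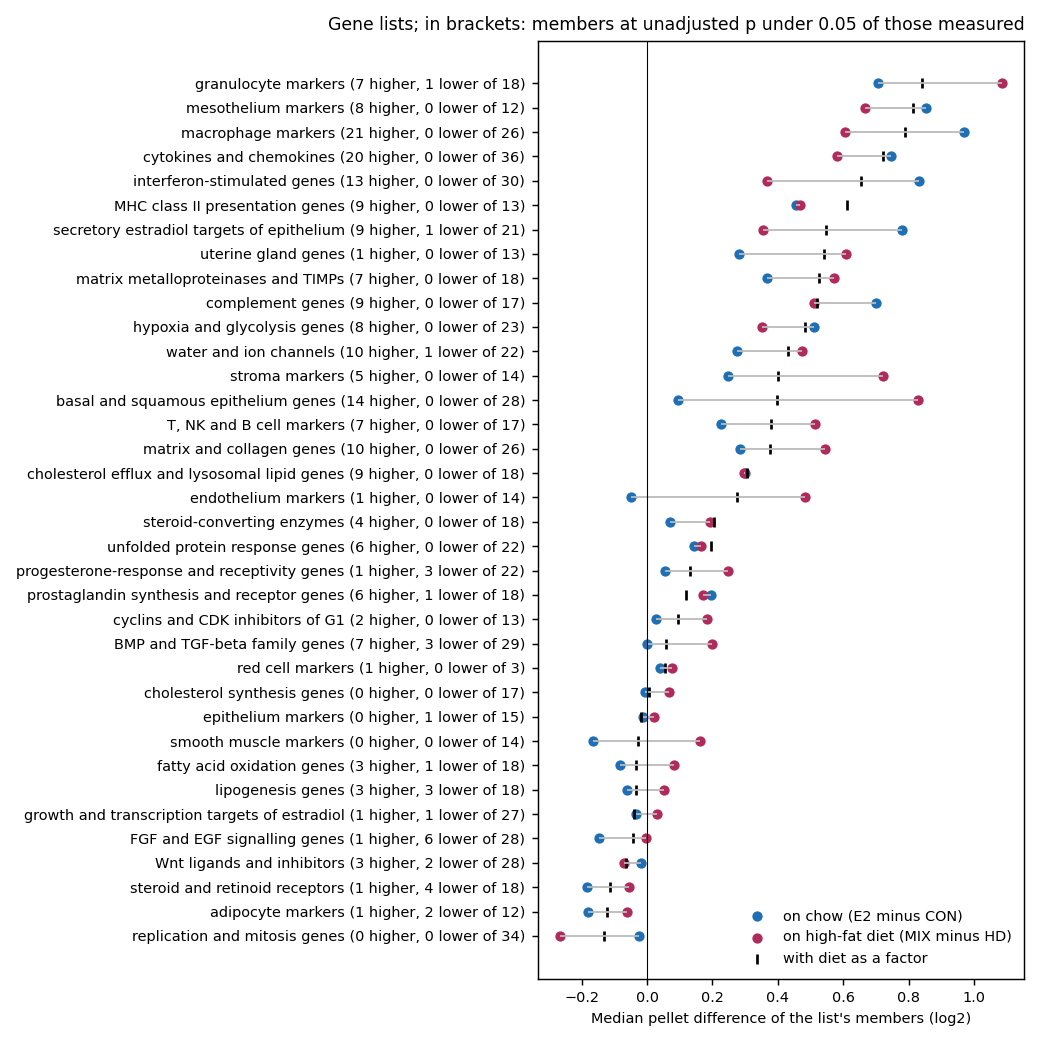
Median log2 pellet difference of the members of 36 gene lists on chow (blue, E2 minus CON), on the high-fat diet (red, MIX minus HD) and with diet as a factor (black tick), with the number of members at an unadjusted p under 0.05 in brackets. Macrophage, cytokine, mesothelium and granulocyte lists lie at medians of 0.72 to 0.84, and epithelium, smooth muscle and cholesterol synthesis lists lie near 0. The lists and their members were chosen with earlier results of these data known.

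Small RNA genes on the array are measured over the precursor region, not as mature molecules, and none passed. Only the 3 of smallest p in each direction are described. Among these, mature sequences are shown for those in which every pellet mouse lay on one side of every other mouse. The sequences are from RefSeq (GRCm38.p6), with the seed, bases 2 to 8, in capitals.
mmu-miR-681: cAGCCUCGcuggcaggcagcu
mmu-miR-6352: uUUGGGAAaaggaccccagcuc
mmu-miR-3088-5p: gCUAUGCAguuguucaugagcu
mmu-miR-3088-3p: uUCAUGAGcagcugcaaaggugu
mmu-miR-136-5p: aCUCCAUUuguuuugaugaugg
mmu-miR-136-3p: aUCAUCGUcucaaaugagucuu
These 6 have different seeds. Mir681 lay at 7.30 to 8.16 (median 7.56) without a pellet and 6.32 to 7.18 (median 6.88) with one, a difference of -0.82 (SE 0.17, limma adjusted p = 0.175) that was alike on chow (-0.90) and the high-fat diet (-0.74). Mir6352 lay at 5.32 to 5.92 (median 5.49) and 4.54 to 5.29 (median 4.97), a difference of -0.61 (SE 0.15). Mir3088 lay at 5.79 to 6.35 (median 6.22) and 6.49 to 8.54 (median 6.91), a difference of 1.10 (SE 0.32; 1.06 and 1.14). Mir136 differed by 0.17 (SE 0.05) at values of 2.31 to 2.67, under the array medians. Mir692-1 (0.26, SE 0.08) and Mir1251 (-0.46, SE 0.09) overlapped between the groups.

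Genes with opposite signs on the diets were the exception among those with small p. Of 3631 genes with 1 symbol at an unadjusted p under 0.05, 3619 had the same sign on both diets, which the choice by the joint difference favours. Of the other 12, the 5 of smallest p had differences of about 0 on one diet. Vwa8 (-0.63 on chow and 0.02 on the high-fat diet) and Spry2, an inhibitor of growth factor signalling (-0.65 and 0.02), differed on chow. Fech, the last enzyme of heme synthesis (-0.01 and 0.45), Pcdhb14 (-0.02 and 0.54) and Ndufa4l2 (-0.00 and 0.70) differed on the high-fat diet. For none of them did the change between the diets pass (adjusted p = 0.929 in limma for each).

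All 12 features called on the high-fat diet alone had the same sign on chow. They were Olfm4, Krt13, Krt15, Krt23, Trp63, Vdr, Tle4, Tanc2, P2rx4 and Gm11227, which were higher, Bmp5, which was lower, and 1 higher feature without a name. Trp63, the master transcription factor of basal squamous epithelium, rose by 0.85 (SE 0.07, adjusted p = 0.00503 in limma) on the high-fat diet and differed by 0.00 on chow. Krt23 rose by 3.15 and differed by 1.26 on chow, and Tle4, a corepressor of Wnt targets, by 1.15 and 0.20. With code style as a covariate 3 features were called, and of the 12 these included Bmp5 and Trp63 (adjusted p = 0.0265 in limma). The calls of the other 10 ended, at adjusted p of 0.0519 for Olfm4, 0.0897 for Krt15 and Tle4 and 0.152 for Krt23. For this pellet difference on high-fat diet the count was 0 with HD replicate 1 or 2 left out, 7 with CON replicate 1 or E2 replicate 4 left out, 41 for HD replicate 3, 110 for MIX replicate 2 and 423 for MIX replicate 1.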

How the data were processed

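Per the submitters' processing notes the authors summarised the arrays with RMA, and the deposited table holds 1 log2 value per feature and mouse. The RNA was labelled with an Affymetrix kit, as the labels' protocols say. RMA works on all arrays together and compresses differences of dim features. Neither its version nor the array library or a filter is named in the sources used here. Of 65929 features, 30887 carried 1 gene symbol in the annotation table, 1863 several and 33179 none; each of the 30425 symbols was represented by its brightest feature on average. Differences were fitted in R 4.3.3 by limma 3.58.1 (lmFit, eBayes) on all 13 mice with terms for diet and pellet (10 residual degrees of freedom), two-sided, with Benjamini-Hochberg adjustment over all features, a threshold of 0.05 and no minimum fold. The differences on each diet and their difference came from a fit of 4 group means. Fits were tested on simulated data. The members and lists were chosen with earlier results of these data known. Named genes are the 12 per direction that passed or had the smallest p with the same sign on both diets (clone-based, predicted, Olfr and Vmn symbols left out), 5 estradiol response genes, 2 members of each list with the smallest p, 3 small RNA genes per direction and 5 genes with opposite signs. Replicate numbers did not pair mice (correlations of deviations -0.26 to 0.31 over 18 same-numbered pairs). Alternatives were the covariate, weighting, filter, scaling and prior of the fit, each code style alone, and each mouse left out; centring and the covariate for gene lists were added after seeing the data.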

Additional observations from a re-analysis of the deposited data

Results flagged for a closer look

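In 34 of 420 groups of 4 to 7 mice tested, 1 mouse stood apart by Dixon's gap ratio, where chance gives about 1 in 20; values are log2. E2 mice stood apart in 17 of these, MIX mice in 6, CON mice in 7 and HD mice in 4. The groups tested were E2, all pellet mice and all mice without a pellet. E2 mice were thus tested in more groups than the others, so these numbers cannot be compared. E2 replicate 1 stood apart within E2 for Acod1 (10.57), Sc5d (9.05), Sdf2l1 (8.64), Ptges (6.58), Bnc1 (8.70) and the squamous list level (6.63), and among all pellet mice for Star (7.24), all on the high side. E2 replicate 2 stood apart on the low side within E2 for Greb1 (7.03), H2-Eb1 (7.62), Myocd (4.37), the replication list level (6.13) and the MHC class II list level (6.43). E2 replicate 3 was high within E2 for Plin1 (5.47) and the cholesterol efflux list level (8.32). E2 replicate 4 was low for the red cell list level (5.63, within E2 and among all pellet mice) and high among pellet mice for the interferon-stimulated list level (9.53).

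Among pellet mice on the high-fat diet, MIX replicate 2 stood apart on the high side of all pellet mice for Esam (7.63) and for the gland (7.57) and endothelium (7.48) list levels. MIX replicate 3 did so for H2-Eb1 (9.48) and for the complement (8.27) and matrix metalloproteinase (7.44) list levels.

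Among the 6 mice without a pellet, CON replicate 3 was high for Hs3st3b1 (7.32), Greb1 (8.10) and Mir1251 (4.60) and low for Cdkn1c (6.52), Mmp2 (7.73) and Slc4a1 (5.68). CON replicate 1 was high for Krt13 (7.31). HD replicate 2 was high for Akr1c21 (3.25) and low for Esrp1 (8.79), and HD replicate 3 was high for Ehhadh (6.52) and for the epithelium list level (10.24).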

How the results depend on the processing

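The pellet difference called 1 feature, and 0 with code style as a covariate, 10 with 4 group means weighting the diets equally, 11 with these and code style, 14 with dim features left out, 2 among features with 1 symbol only, 11 with array weights and 0 to 12 when single mice were left out (12 without E2 replicate 3). It called 1 without the diet term, with centred arrays, quantile normalization, an intensity trend or the replicate block (difference of Olfm4 4.33 with it). The pellet difference on high-fat diet called 12 features, 3 with code style, 3 with the replicate block and 0 to 423 when single mice were left out. The pellet difference on chow called 0 under all these settings, and the difference of the pellet differences 0 except for 5 without MIX replicate 2 and 2 without MIX replicate 3. In lettered mice alone the sign reversed for the Pgr difference (0.0556), the Lcn2 difference (-0.0716), the Mcm2 difference (0.306) and the Mcm6 difference (0.389). These mice hold 1 each of CON, E2 and HD, and the cause was not tested. In numbered mice alone the sign reversed for the Pcdhb14 difference (-0.098) and the Ndufa4l2 difference (-0.164). Numbered mice include none of MIX, so these values are E2 minus CON on chow. Over all mice both genes differed by about 0 on chow (-0.02 and -0.00). Olfm4 passed in 13 of 26 alternatives with differences of 3.63 to 4.33, Tanc2 in 6 and Krt13 in 4. The number of mice limits the precision; genes under the array medians, such as Akr1c21 and S100a8 without a pellet, can have compressed differences.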
